A study of Homo sapiens with 6 samples.

Results

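The genes of cholesterol and fatty acid synthesis were followed in LoVo-HM and LoVo, human colorectal cancer cells. The set was a list of 44 genes chosen by symbol, and all 44 had a row among the 24580 rows of expression values. LoVo-HM is labelled as a high-metastatic subline of LoVo, an established colorectal adenocarcinoma line, and LoVo is labelled as wild type. Neither group had a treatment, and each of the 2 groups had 3 RNA libraries, 6 libraries in all. The labels do not say how the subline was made, whether it is a clone or whether the libraries came from separate cultures, so p-values measure the spread between these libraries, which may be technical. Of 8 genes that mark colorectal epithelium, 4 were higher and 2 lower in LoVo-HM, VIL1 was listed at 0 in every library and CDH17 was at or near 0. The keratins KRT8 (1348 FPKM in LoVo-HM, against 1199 FPKM in LoVo), KRT18 (859 FPKM in LoVo-HM, against 549 FPKM in LoVo) and KRT19 (389 FPKM in LoVo-HM, against 105 FPKM in LoVo) and the factor CDX2 (14.7 FPKM in LoVo-HM, against 8.39 FPKM in LoVo) were higher. EPCAM (51.7 FPKM in LoVo-HM, against 128 FPKM in LoVo) and the cadherin CDH1 (7.91 FPKM in LoVo-HM, against 48.0 FPKM in LoVo) were lower.

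Cholesterol is built from acetyl-CoA through mevalonate and squalene to lanosterol, which is then trimmed to cholesterol. Fatty acids are built from the same acetyl-CoA, lengthened, desaturated, activated to acyl-CoA and stored as triglyceride in droplets. Both pathways are driven by the SREBP transcription factors, which SCAP carries out of the endoplasmic reticulum when sterols are scarce and which the INSIG proteins hold back when sterols are plentiful. Rapidly dividing tumour cells, those of the colon among them, are known for making much of their own lipid.

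The deposited unit was FPKM, a fragment number scaled to transcript length and library size, so levels can be set side by side between genes. Library totals were 424624 to 428265 FPKM in LoVo-HM, against 434108 to 439082 FPKM in LoVo, and the read depth is unknown. Differences are LoVo-HM minus LoVo on the log2(FPKM + 1) scale ± SE, with n = 3 libraries per group, and adjusted p-values come from limma with Benjamini-Hochberg adjustment over the 14487 genes whose mean reached 0.5 FPKM. Genes with an adjusted p under 0.05 are called higher or lower. Over all genes, 44.9% of those tested were called, 21.8% higher and 23.1% lower in LoVo-HM, and 55% had no overlap between the lines. Among the members that share was 67.4%. The median difference of all tested genes was 0.003.

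Of the 44 members 43 were tested and 1, PLIN2, was too low. Among the 43, 18 were higher (41.9%) and 8 lower (18.6%) in LoVo-HM, and 17 did not pass the threshold. The median difference of the members was 0.085, and 1 member, SCD, was called with a difference of at least 1. Most differences were small. In 21 of the 43 the absolute difference was under 0.25, and in 10 (23.3%) it was at least 0.5, against 19.1% of all tested genes. The members were well expressed, with a median level of 23.4 FPKM over the libraries, against 8.54 FPKM for all tested genes.

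Counts differed from branch to branch, and over all tested genes 21.8% were higher and 23.1% lower. Enzymes of sterol synthesis were higher in 8 of 18 and lower in 1, and their median difference was 0.104. Genes of sterol sensing and transport were higher in 3 of 6 and lower in 0 by limma (1 had an unadjusted p under 0.05 in that direction, and leaving out a library gave 1 call in each of 2 fits, given below). Their median was 0.176. Enzymes of fatty acid synthesis were higher in 5 of 9 and lower in 1, with a median of 0.213. The acyl-CoA synthetases that activate fatty acids were higher in 1 of 4 and lower in 3, with a median of -0.319. Genes of lipid storage and uptake were higher in 1 of 6 tested and lower in 3, with a median of -0.164. The difference between branches was not tested, since the members were picked as a list.

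**Figure D1:**
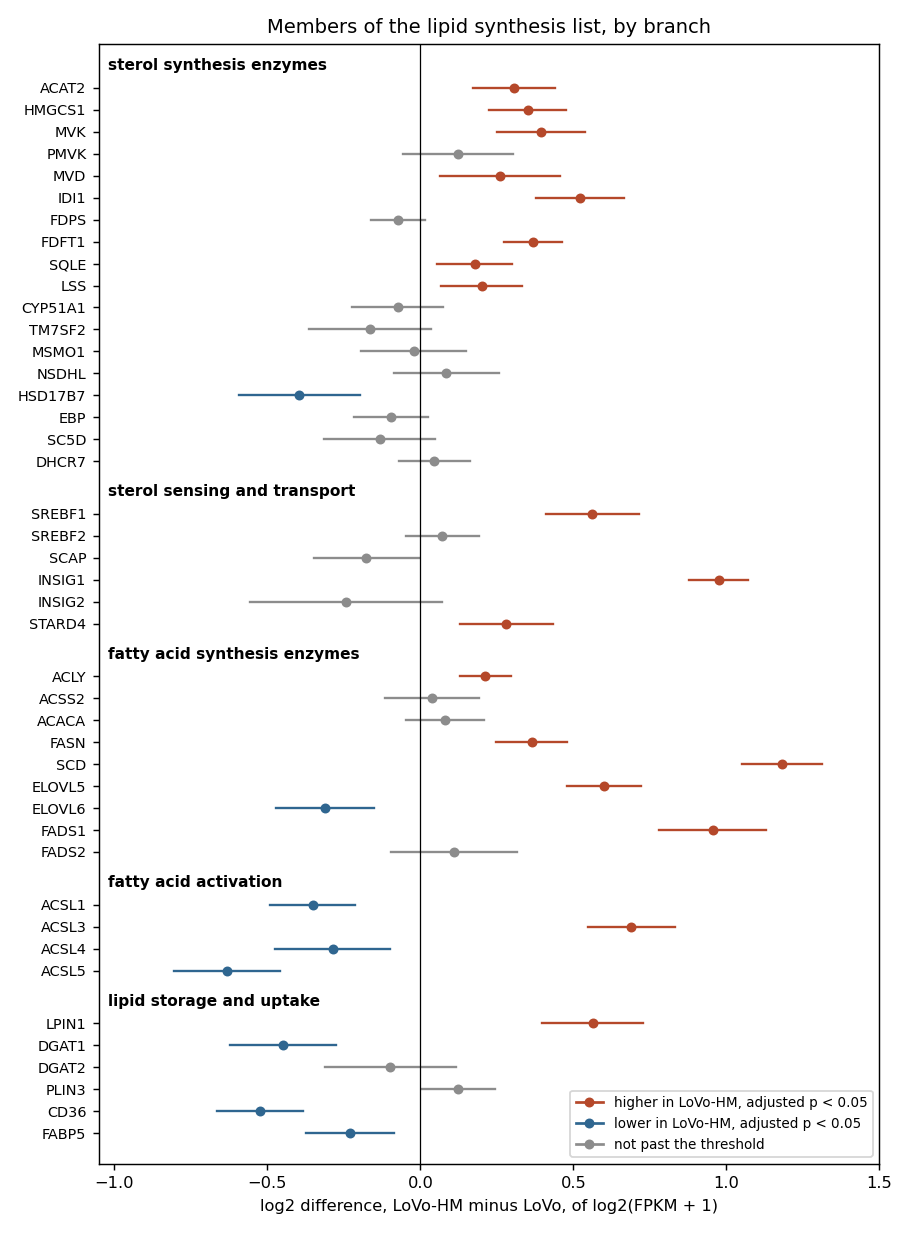
Log2 difference of each of the 43 tested members (x axis, LoVo-HM minus LoVo on the log2(FPKM + 1) scale) by branch, in the order of the pathway, with points for the estimates and lines for 95% confidence intervals from limma. Red members were higher and blue members lower in LoVo-HM at an adjusted p under 0.05, and grey members were not called. SCD lies farthest to the right at 1.18 and ACSL5 farthest to the left at -0.63.

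Early in the sterol branch, the genes from acetoacetyl-CoA to lanosterol were mostly higher in LoVo-HM. Of the 10 such members, 8 were called higher and 0 lower by limma (0 also at an unadjusted p under 0.05), with a median of 0.28. The cut at lanosterol was chosen after the values were seen. ACAT2, which makes the acetoacetyl-CoA that starts the pathway, was at 26.9, 28.9 and 30.3 FPKM in LoVo-HM, against 23.0, 23.6 and 22.3 FPKM in LoVo (0.31 ± 0.059, limma adjusted p = 0.00293). HMGCS1, which condenses it to HMG-CoA, was at 80.4, 84.3 and 91.4 FPKM in LoVo-HM, against 64.9, 66.4 and 68.6 FPKM in LoVo (0.35 ± 0.055, limma adjusted p = 0.000999). For both genes every LoVo-HM library lay above every LoVo library. ACAT2 overlaps exons of TCP1 and SOD2 on the opposite strand, and the strand setting of the counting is not given in the sources used here, so its value is uncertain. HMGCS1, IDI1, FDPS and PLIN3 likewise share 14.8% to 18.6% of their exonic bases with antisense genes on the opposite strand, and MVK and SREBF1 share fewer with MMAB and RAI1. CYP51A1 shares 79.4% and DGAT1 10.7% with other annotated genes on the same strand, which strand cannot separate. TCP1 averaged 266 FPKM in LoVo-HM, against 222 FPKM in LoVo.

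MVK, the kinase of mevalonate, was at 15.2, 15.4 and 16.6 FPKM in LoVo-HM, against 12.3, 11.7 and 11.2 FPKM in LoVo (0.39 ± 0.063, limma adjusted p = 0.00116). The 2 groups were apart. PMVK, the next kinase, had overlapping values with means of 8.27 FPKM in LoVo-HM, against 7.51 FPKM in LoVo (limma adjusted p = 0.235). MVD, which decarboxylates the product, was at 22.6, 28.3 and 23.6 FPKM in LoVo-HM, against 21.2, 20.9 and 19.3 FPKM in LoVo (0.26 ± 0.085, limma adjusted p = 0.0359). LoVo-HM replicate 2 stood above the other libraries for MVD. Without it the difference was 0.166 (adjusted p = 0.0777), and the call was also lost without any single LoVo library (adjusted p = 0.0555 to 0.109). IDI1, the isomerase that makes dimethylallyl diphosphate, had the largest difference of the sterol enzymes. It was at 48.1, 51.9 and 56.5 FPKM in LoVo-HM, against 35.5, 35.3 and 37.1 FPKM in LoVo (0.52 ± 0.063, limma adjusted p = 0.000214), a ratio of means of 1.45.

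FDPS, the synthase of farnesyl diphosphate, was at 104, 102 and 104 FPKM in LoVo-HM, against 109, 111 and 106 FPKM in LoVo, without overlap, but was not called (-0.07 ± 0.038, limma adjusted p = 0.158). FDPS has 8 pseudogenes named after it, which could share reads with it. FDFT1, the squalene synthase that commits farnesyl diphosphate to sterols, was at 103, 102 and 108 FPKM in LoVo-HM, against 78.5, 81.7 and 81.9 FPKM in LoVo (0.37 ± 0.042, limma adjusted p = 0.000154). SQLE, the squalene epoxidase, averaged 63.1 ± 3.53 FPKM in LoVo-HM, against 55.6 ± 1.97 FPKM in LoVo (SD, n = 3 each; 0.18 ± 0.054, limma adjusted p = 0.027). LSS, the lanosterol synthase, averaged 29.5 ± 1.6 FPKM in LoVo-HM, against 25.6 ± 0.973 FPKM in LoVo (SD, n = 3 each; 0.20 ± 0.058, limma adjusted p = 0.0211). These last 2 calls depended on single libraries. SQLE was not called without LoVo-HM replicate 2 or 3 or without LoVo replicate 1 or 2 (adjusted p = 0.0601 to 0.0894). LSS was not called without LoVo-HM replicate 2 or without LoVo replicate 1 or 3 (adjusted p = 0.0646 to 0.0657). The count of 8 higher among the sterol enzymes was 5 without LoVo-HM replicate 2 and 5 without LoVo replicate 1.

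Of the 8 members after lanosterol 0 were called higher (0 also at an unadjusted p under 0.05) and 1 lower by limma, with a median of -0.08 and differences from -0.40 to 0.08. CYP51A1, the lanosterol demethylase, averaged 45.7 ± 3.48 FPKM in LoVo-HM, against 48.2 ± 2.44 FPKM in LoVo (SD, n = 3 each; limma adjusted p = 0.39). MSMO1, the methylsterol oxidase, averaged 29.1 FPKM in LoVo-HM, against 29.6 FPKM in LoVo, and DHCR7, which makes cholesterol from 7-dehydrocholesterol, averaged 66.9 FPKM in LoVo-HM, against 64.7 FPKM in LoVo. The values of these 3 genes overlapped between the lines. HSD17B7, the ketoreductase of the C4 demethylation complex, was the member called lower. It was at 7.59, 6.44 and 7.39 FPKM in LoVo-HM, against 8.79, 9.90 and 10.4 FPKM in LoVo (-0.40 ± 0.086, limma adjusted p = 0.00584), with all LoVo-HM libraries below all LoVo libraries. It has 2 pseudogenes named after it, and CYP51A1 has 3. NSDHL and EBP, the partner dehydrogenase and the sterol isomerase, were not called (limma adjusted p = 0.395 and 0.173). TM7SF2, a sterol reductase, and SC5D, a sterol desaturase, were not called (-0.16 and -0.13), but TM7SF2 was called lower without LoVo-HM replicate 2 (-0.262, adjusted p = 0.0148) and SC5D without LoVo-HM replicate 3 (-0.219, adjusted p = 0.0218).

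The summed FPKM of the steps up to lanosterol was 495, 515 and 535 in LoVo-HM, against 431, 440 and 436 in LoVo, 1.18-fold. The sum of the later steps was 233, 247 and 246 in LoVo-HM, against 244, 253 and 257 in LoVo, 0.961-fold. The sums of the early steps were apart between the lines, and those of the late steps overlapped. CYB5R3 and POR, outside the member list, pass electrons to the oxidases of the late steps, and both were higher. CYB5R3 averaged 64.7 FPKM in LoVo-HM, against 47.9 FPKM in LoVo (0.43, limma adjusted p = 0.000106), and POR averaged 28.3 FPKM in LoVo-HM, against 23.6 FPKM in LoVo (0.25, limma adjusted p = 0.00657).

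**Figure D2:**
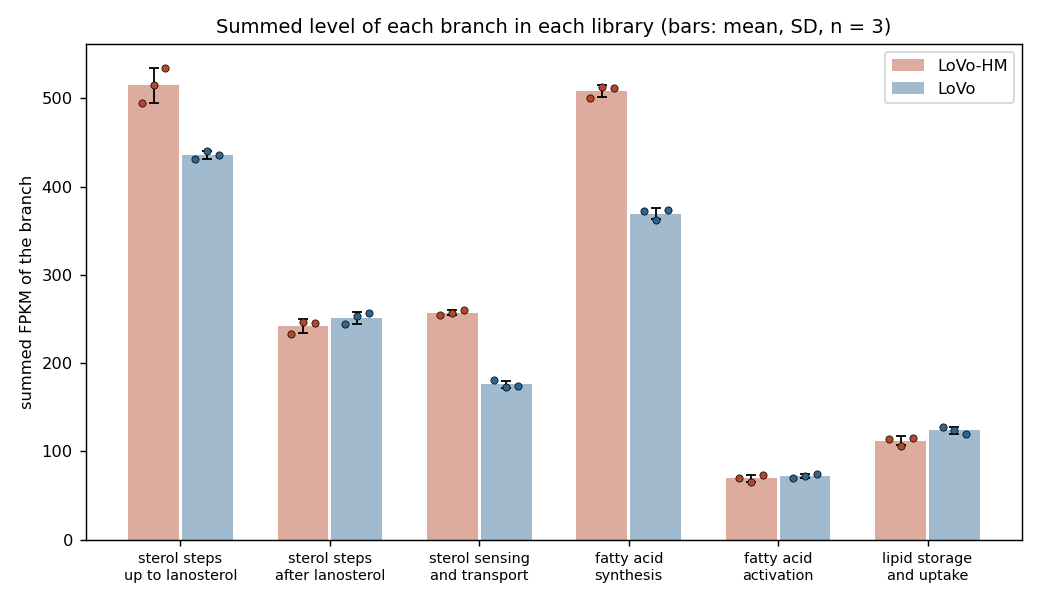
Summed FPKM of the members of each branch (y axis) in LoVo-HM (red) and LoVo (blue), with a point per library, bars for the mean and error bars for the SD (n = 3 each). The sums for sterol steps up to lanosterol, sterol sensing and transport, and fatty acid synthesis were higher in every LoVo-HM library. Those for the later sterol steps and for fatty acid activation overlapped. The summed level of storage and uptake was lower in LoVo-HM. Its largest part was the uptake gene FABP5, at a mean of 49.2 FPKM in LoVo-HM, against 57.9 FPKM in LoVo. In that branch LPIN1 and PLIN3 had higher means in LoVo-HM.

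Among the genes that sense sterols, INSIG1 was higher and its relative INSIG2 was not called. INSIG1 (ENSG00000186480, chromosome 7, 155297776 to 155310235 in GRCh38), which retains SCAP in the endoplasmic reticulum and is itself a known SREBP target, was at 129, 131 and 139 FPKM in LoVo-HM, against 66.8, 67.2 and 67.3 FPKM in LoVo (0.98 ± 0.042, limma adjusted p = 3.43e-07). The gap between the lines was many times the spread within either line, and the ratio of means was 1.98. INSIG2 was at 3.87, 3.38 and 5.54 FPKM in LoVo-HM, against 5.23, 5.12 and 5.05 FPKM in LoVo (-0.24 ± 0.137, limma adjusted p = 0.183). LoVo-HM replicate 3 stood above the LoVo libraries and the other LoVo-HM libraries below them. Without that library INSIG2 was called lower (-0.410, adjusted p = 0.00835).

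Of the SREBP genes SREBF1 was higher and SREBF2 was not called. SREBF1, whose products mainly drive fatty acid genes, was at 42.4, 41.7 and 38.9 FPKM in LoVo-HM, against 29.6, 27.6 and 25.3 FPKM in LoVo (0.56 ± 0.067, limma adjusted p = 0.000194). SREBF2, whose product mainly drives sterol genes, was at 47.6, 50.8 and 49.2 FPKM in LoVo-HM, against 49.5, 45 and 45.9 FPKM in LoVo (0.07 ± 0.053, limma adjusted p = 0.301). The SREBF1 groups were apart and the SREBF2 groups overlapped. The table gives 1 value per gene, so the SREBP-1a and SREBP-1c forms of SREBF1 cannot be told apart. SCAP was at 18.5, 16.7 and 15.3 FPKM in LoVo-HM, against 19.1, 18.2 and 20 FPKM in LoVo and was not called (-0.18 ± 0.075, limma adjusted p = 0.0859). Without LoVo-HM replicate 1 it was called lower (-0.243, adjusted p = 0.0344). STARD4, which carries cholesterol between membranes, was at 12.7, 13.9 and 12.6 FPKM in LoVo-HM, against 10.4, 10.1 and 11.2 FPKM in LoVo (0.28 ± 0.067, limma adjusted p = 0.00883), without overlap.

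Genes around this core were mostly not called. In the lists below 30% to 40% of tested genes were called, against 44.9% of all tested genes. Of 10 genes of SREBP processing and sterol-dependent degradation, 2 were higher and 1 lower, with a median of 0.156. The higher count was 4 without LoVo replicate 2 and the lower count 2 without LoVo-HM replicate 3. TMEM97, a sterol-responsive membrane protein, was at 36.5, 36.5 and 37.2 FPKM in LoVo-HM, against 22.7, 22.7 and 26.0 FPKM in LoVo (0.61, limma adjusted p = 8e-05). The other calls, MBTPS1, the protease that makes the first cut in SREBP (0.18), and the coat protein SEC24D (-0.28), were lost in fits that left out single libraries. MBTPS1 was not called without LoVo-HM replicate 3 or LoVo replicate 1 (adjusted p = 0.0541 and 0.0738), and SEC24D was not called without LoVo-HM replicate 1 or 2 or LoVo replicate 3 (adjusted p = 0.051 to 0.0556). Of 5 tested genes of the LXR pathway, which acts when sterols are plentiful, 0 were higher by limma (0 also at an unadjusted p under 0.05, and 1 called when low genes were tested too) and 2 were lower, with a median of -0.201. These were the receptor NR1H3 (-0.35) and the phospholipid acyltransferase LPCAT3 (-0.20), while the E3 ligase MYLIP was not called (-0.38, limma adjusted p = 0.109). ABCA1 and ABCG1 of the same list were too low to test and are named after their values were seen. ABCA1 averaged 0.337 FPKM in LoVo-HM, against 0.201 FPKM in LoVo, without overlap. ABCG1 averaged 0.378 FPKM in LoVo-HM, against 0.271 FPKM in LoVo, with overlap. Without LoVo replicate 3 neither NR1H3 nor LPCAT3 was called (adjusted p = 0.0506 and 0.0637), LPCAT3 was also lost without LoVo-HM replicate 1 or 3 or LoVo replicate 1 (adjusted p = 0.051 to 0.0698), and MYLIP was called lower without LoVo replicate 2 (adjusted p = 0.0237). Of 10 tested genes of cholesterol trafficking and esterification 1 was higher and 2 lower, with a median of 0.029. The sterol transporter GRAMD1A was higher (0.66), and the oxysterol-binding protein OSBPL2 (-0.65) and the cholesteryl ester hydrolase NCEH1 (-0.78) were lower. The higher count was 2 without LoVo-HM replicate 3 or LoVo replicate 1. Of 12 genes of the isoprenoid branch beside sterols 1 was higher and 3 lower, with a median of 0.061. ICMT, which methylates prenylated proteins, was higher (0.22), and PDSS2, for the ubiquinone side chain, and FNTA, the farnesyltransferase subunit, were lower (-0.41 and -0.25). The higher count was 3 without LoVo-HM replicate 2 and with quantile normalization, and 2 in several other settings.

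Promoter sequences were read for the members because SREBP is known to act from sterol elements beside NF-Y, which binds the letters CCAAT. RefSeq windows on GRCh38.p14 matched 37 of the 44 members, and the 250 bases before the RefSeq gene start were searched on both strands. That start can differ from the GENCODE 29 gene start used for positions, which takes in every listed transcript, by more than 1000 bases in 11 of the 37. In the printed windows it lies 539 bases inside the GENCODE gene for MVK, 109 for SCD, 102 for INSIG1, 100 for HMGCS1 and 26 for SREBF2. CCAAT was present in 12 of 15 windows of sterol synthesis enzymes (80%), in 4 of 8 of fatty acid synthesis enzymes (50%) and in 1 of 4 of the acyl-CoA synthetases (25%), against 33% of 27305 promoters. Among the sterol enzymes 5 of 7 windows of steps up to lanosterol and 7 of 8 windows of later steps held it. The letters TCACNCCAC, a form of the sterol element, were found in 1 of the 37 windows, that of SREBF2, against 0.875% of all promoters. A match is a string of letters and not a shown binding site. Only 1 form of the sterol element was searched, in 250 bases, so a window without it may still have a site in other letters or elsewhere. The windows of 5 members that hold CCAAT are printed as examples. MVK, HMGCS1, INSIG1 and SCD were called higher, and SREBF2 holds the sterol element. The windows of IDI1, SREBF1, FADS1 and LPIN1, also called higher, do not hold CCAAT and are not printed. Each printed window runs from 5′ to 3′ with CCAAT, its reverse complement ATTGG and the sterol element in capitals.
MVK, chr12:109573544-109573793, plus strand: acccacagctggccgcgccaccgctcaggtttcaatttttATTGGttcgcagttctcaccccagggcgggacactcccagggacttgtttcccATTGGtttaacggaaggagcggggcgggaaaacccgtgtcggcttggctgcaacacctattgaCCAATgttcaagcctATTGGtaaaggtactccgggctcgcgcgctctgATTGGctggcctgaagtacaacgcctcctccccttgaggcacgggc
HMGCS1, chr5:43313413-43313662, minus strand: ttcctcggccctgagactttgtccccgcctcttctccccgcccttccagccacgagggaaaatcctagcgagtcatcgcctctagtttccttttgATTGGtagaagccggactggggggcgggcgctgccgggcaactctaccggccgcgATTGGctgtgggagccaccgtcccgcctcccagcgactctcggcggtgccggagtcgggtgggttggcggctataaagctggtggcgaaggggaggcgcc
INSIG1, chr7:155297628-155297877, plus strand: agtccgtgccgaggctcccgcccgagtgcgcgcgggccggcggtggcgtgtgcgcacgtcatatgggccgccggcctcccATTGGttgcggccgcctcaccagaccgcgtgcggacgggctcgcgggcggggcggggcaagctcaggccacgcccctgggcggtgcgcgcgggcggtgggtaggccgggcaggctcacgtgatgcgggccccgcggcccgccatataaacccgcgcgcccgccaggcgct
SREBF2, chr22:41832855-41833104, plus strand: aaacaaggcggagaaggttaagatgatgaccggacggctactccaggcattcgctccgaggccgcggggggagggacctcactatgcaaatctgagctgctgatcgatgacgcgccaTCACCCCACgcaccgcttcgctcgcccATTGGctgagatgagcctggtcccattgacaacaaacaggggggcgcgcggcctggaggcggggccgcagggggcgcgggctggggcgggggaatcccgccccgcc
SCD, chr10:100346983-100347232, plus strand: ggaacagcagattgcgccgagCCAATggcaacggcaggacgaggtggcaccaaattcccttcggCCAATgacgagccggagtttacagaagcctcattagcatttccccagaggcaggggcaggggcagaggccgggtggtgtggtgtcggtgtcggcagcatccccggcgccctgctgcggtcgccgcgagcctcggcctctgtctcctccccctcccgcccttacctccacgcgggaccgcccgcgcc
The window of MVK held 5 matches to CCAAT in all, those of HMGCS1 and SCD 2 each, and those of INSIG1 and SREBF2 1 each. In SREBF2 the sterol element began 133 bases and the CCAAT match 106 bases before the RefSeq start.

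Within fatty acid synthesis the largest differences were those of SCD, FADS1 and ELOVL5, at desaturation and elongation steps, and SCD had the largest absolute difference of the 43 tested members. SCD (ENSG00000099194, chromosome 10, 100347124 to 100364834), the stearoyl-CoA desaturase that makes oleate, was at 95.9, 101 and 106 FPKM in LoVo-HM, against 41.7, 43.7 and 46.7 FPKM in LoVo (1.18 ± 0.058, limma adjusted p = 7.21e-07). The groups were far apart, with a ratio of means of 2.3. In absolute size this difference ranked 729 among the 14487 tested genes. SCD has 1 pseudogene named after it, and so does FADS2. FADS1 (chromosome 11, 61799625 to 61829318), the delta-5 desaturase of polyunsaturated fatty acids, was at 24.3, 25.2 and 23.5 FPKM in LoVo-HM, against 11.0, 13.5 and 11.9 FPKM in LoVo (0.95 ± 0.077, limma adjusted p = 1.76e-05). Its neighbour FADS2, the delta-6 desaturase, was at 6.82, 7.53 and 6.74 FPKM in LoVo-HM, against 6.19, 5.86 and 7.34 FPKM in LoVo (0.11 ± 0.090, limma adjusted p = 0.362). FADS1 was thus apart and FADS2 overlapping, although the genes overlap by 490 exonic bases on opposite strands and could exchange reads if strand was not used.

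The elongases went opposite ways. ELOVL5, which lengthens polyunsaturated chains, was at 56.8, 56.5 and 62.6 FPKM in LoVo-HM, against 38.6, 38.6 and 37.7 FPKM in LoVo (0.60 ± 0.053, limma adjusted p = 3.04e-05). ELOVL6, which lengthens saturated chains, was at 5.34, 4.83 and 5.38 FPKM in LoVo-HM, against 6.55, 6.74 and 6.72 FPKM in LoVo (-0.31 ± 0.070, limma adjusted p = 0.00695). Neither gene overlapped between the lines.

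The core enzymes that build palmitate had smaller differences. ACLY, which frees acetyl-CoA from citrate and was the most abundant member, was at 162, 163 and 165 FPKM in LoVo-HM, against 144, 138 and 141 FPKM in LoVo (0.21 ± 0.037, limma adjusted p = 0.00173). FASN, the fatty acid synthase, was at 116, 120.2 and 108 FPKM in LoVo-HM, against 92.2, 86.4 and 88.2 FPKM in LoVo (0.36 ± 0.051, limma adjusted p = 0.000509). Both were without overlap. ACACA, the acetyl-CoA carboxylase between them, averaged 23.8 ± 0.219 FPKM in LoVo-HM, against 22.5 ± 1.28 FPKM in LoVo (SD, n = 3 each; limma adjusted p = 0.281). ACSS2, which makes acetyl-CoA from acetate, averaged 9.89 FPKM in LoVo-HM, against 9.61 FPKM in LoVo (limma adjusted p = 0.665). Summed over the 9 enzymes the level was 508 ± 6.8 FPKM in LoVo-HM, against 369 ± 6.01 FPKM in LoVo (SD, n = 3 each), 1.38-fold. Of 16 further tested genes of fatty acid synthesis 5 were higher and 2 lower, with a median of 0.079. The share called was 43.8%, near the 44.9% of all tested genes. The citrate carrier SLC25A1 was at 48.5, 55.7 and 48.2 FPKM in LoVo-HM, against 36.2, 37.3 and 32.7 FPKM in LoVo (0.51, limma adjusted p = 0.000611). FADS3, a desaturase beside FADS2, was higher (0.48), and the elongase ELOVL7 was lower (-0.79).

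**Figure D3:**
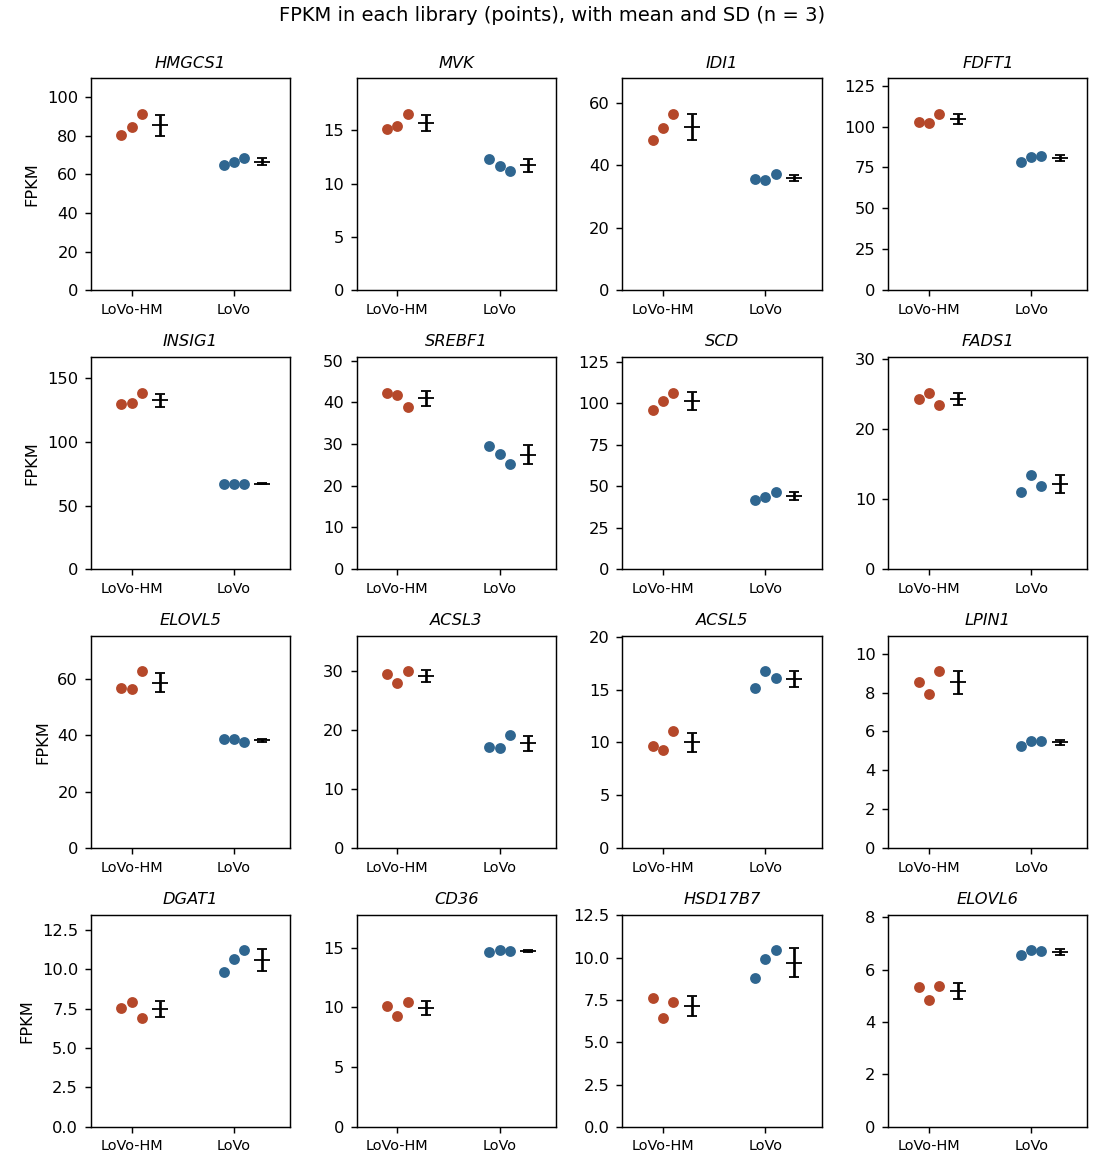
FPKM of 16 members in each library (y axes from 0), with LoVo-HM in red and LoVo in blue, and the mean and SD (n = 3 each) beside the points. The 16 were all taken from the called members, so their lack of overlap follows from that choice. Of all tested members 67.4% had no overlap, against 55% of all tested genes. SCD lies at 95.9 to 106 FPKM in LoVo-HM, against 41.7 to 46.7 FPKM in LoVo, and ELOVL6 is lower in LoVo-HM.

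The 4 acyl-CoA synthetases, which charge fatty acids with coenzyme A, were all called, 1 higher and 3 lower. Over all tested genes 44.9% were called, 21.8% higher and 23.1% lower. ACSL3, which sits on the endoplasmic reticulum and droplets, was at 29.5, 28 and 29.9 FPKM in LoVo-HM, against 17.1, 16.9 and 19.1 FPKM in LoVo (0.69 ± 0.063, limma adjusted p = 3.79e-05). ACSL5, a mitochondrial and endoplasmic reticulum form abundant in intestine, was at 9.69, 9.28 and 11.0 FPKM in LoVo-HM, against 15.2, 16.7 and 16.1 FPKM in LoVo (-0.63 ± 0.076, limma adjusted p = 0.000207). ACSL3 and ACSL5 thus moved oppositely by a similar amount. ACSL1, linked to both storage and oxidation, was at 16.4, 15.5 and 16.8 FPKM in LoVo-HM, against 19.9, 21.0 and 22.1 FPKM in LoVo (-0.35 ± 0.061, limma adjusted p = 0.00169). ACSL4, which prefers arachidonate, was at 14.0, 12.6 and 15.8 FPKM in LoVo-HM, against 18.1, 17.4 and 16.6 FPKM in LoVo (-0.29 ± 0.082, limma adjusted p = 0.0208). The groups were apart for both, narrowly for ACSL4, whose call was lost without LoVo-HM replicate 1 or 2 or LoVo replicate 1 or 2 (adjusted p = 0.056 to 0.0671). The summed level of the 4 synthetases was 69.5 ± 4.13 FPKM in LoVo-HM, against 72.1 ± 1.85 FPKM in LoVo (SD, n = 3 each), so their total overlapped while its make-up differed.

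In the storage branch LPIN1, the phosphatidate phosphatase that makes diacylglycerol, was higher. It was at 8.55, 7.92 and 9.09 FPKM in LoVo-HM, against 5.28, 5.53 and 5.51 FPKM in LoVo (0.56 ± 0.072, limma adjusted p = 0.000306). DGAT1, which makes triglyceride from diacylglycerol, was at 7.56, 7.93 and 6.91 FPKM in LoVo-HM, against 9.82, 10.7 and 11.2 FPKM in LoVo (-0.45 ± 0.076, limma adjusted p = 0.00149). LPIN1 and DGAT1, of consecutive steps, were thus called in opposite directions, each without overlap. Other genes of these steps did not all follow them. DGAT2, an unrelated enzyme for the reaction of DGAT1, was at 8.34, 7.59 and 7.89 FPKM in LoVo-HM, against 9.99, 8.02 and 7.83 FPKM in LoVo. The DGAT2 groups overlapped (limma adjusted p = 0.427). Of the relatives of LPIN1, LPIN3 was called lower (-0.34, limma adjusted p = 0.00699) and LPIN2 was not called (limma adjusted p = 0.472). LPIN2 and LPIN3 are named after their values were seen.

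Both members that take up or carry fatty acids were lower. CD36, a fatty acid receptor of the cell surface, was at 10.1, 9.28 and 10.4 FPKM in LoVo-HM, against 14.7, 14.8 and 14.7 FPKM in LoVo (-0.52 ± 0.062, limma adjusted p = 0.000186). FABP5, a cytosolic fatty acid carrier, was at 49.9, 45.9 and 51.9 FPKM in LoVo-HM, against 60.8, 58.8 and 54.0 FPKM in LoVo (-0.23 ± 0.063, limma adjusted p = 0.0174). Both were without overlap, but the FABP5 call was lost without LoVo-HM replicate 2 or LoVo replicate 1 or 2 (adjusted p = 0.0527 to 0.0617), and FABP5 has 13 pseudogenes named after it. CD36 is also a gene of adipocytes and macrophages. Of 6 adipocyte markers 3 were listed at 0 in every library, ADIPOQ, CIDEC and FABP4, and their summed level was 0.336 to 0.395 FPKM in LoVo-HM, against 0.606 to 0.941 FPKM in LoVo. Of 4 leukocyte and macrophage markers PTPRC was listed at 0 in every library, and the summed level was 2.44 to 2.86 FPKM in LoVo-HM, against 3.47 to 3.72 FPKM in LoVo, most of it CD68. The part of these cells in the CD36 result was not tested.

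Of the droplet coat proteins among the members, PLIN3 was not called and PLIN2 was too low to test. PLIN3 was at 30.2, 27.9 and 29.3 FPKM in LoVo-HM, against 27.4, 26.0 and 26.5 FPKM in LoVo (0.12 ± 0.052, limma adjusted p = 0.0838). Its groups did not overlap, and it was called higher when each library was rescaled to the same total (0.159, adjusted p = 0.0332). PLIN2, the droplet coat protein common to most cell types, was listed at 0, 0 and 0.0375 FPKM in LoVo-HM, against at 0, 0.0503 and 0.0396 FPKM in LoVo. It was the 1 member with a listed 0, and a 0 in a table without counts can be a failed estimate.

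Further lists covered droplets, uptake and membrane lipids. The shares called were 72.7%, 55.6% and 56.2% in that order, against 44.9% of all tested genes. Of 11 tested droplet and lipolysis genes 2 were higher and 6 lower, with a median of -0.234. PLIN4, another coat protein of the perilipin family, was low, at 0.378, 0.757 and 0.530 FPKM in LoVo-HM, against 1.07, 0.848 and 1.3 FPKM in LoVo, and was called lower (-0.42, limma adjusted p = 0.0339). The call was lost without LoVo-HM replicate 1 or 3 or LoVo replicate 1 or 3 (adjusted p = 0.0764 to 0.109). PLIN4 is named as a relative of PLIN3, after its values were seen. AUP1, a droplet protein, was at 28.7, 27.5 and 27.6 FPKM in LoVo-HM, against 44.8, 46.3 and 44.3 FPKM in LoVo (-0.67, limma adjusted p = 6.52e-06). The lipolysis co-activator ABHD5 and BSCL2, the droplet protein seipin, were also lower (-0.51 and -0.96), and BSCL2, which shares exons with a readthrough gene and is uncertain, spread widely between libraries, from 13.9 to 22.8 FPKM in LoVo-HM, against 27.3 to 42.0 FPKM in LoVo. The 6 lower droplet genes were 3 without LoVo replicate 1. Of 9 tested uptake genes 0 were higher by limma (0 also at an unadjusted p under 0.05, and 1 called without LoVo replicate 2) and 5 lower, with a median of -0.374. They included the fatty acid transport proteins SLC27A3 and SLC27A4 (-0.71 and -0.50) and GOT2, a mitochondrial transaminase also described as a fatty acid binding protein (-0.37). Of 16 tested genes of glycerolipid and phospholipid synthesis 2 were higher and 7 lower, with a median of -0.161. PTDSS1, which makes phosphatidylserine, and PISD, which converts it to phosphatidylethanolamine, were lower (-0.56 and -0.46), and the choline kinase CHKA was higher (0.52). The 2 higher were 1 without LoVo-HM replicate 1 and without LoVo replicate 1 or 2.

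Of 16 genes of fatty acid oxidation 3 were higher and 4 lower, with a median of -0.061. The share called was 43.8%, near the 44.9% of all tested genes. CPT1A, the gate of entry into mitochondria, was at 45.1, 43.3 and 44.1 FPKM in LoVo-HM, against 88.4, 88.9 and 90.4 FPKM in LoVo (-0.999, limma adjusted p = 2.32e-07). ACADM, the medium-chain dehydrogenase, was at 51.3, 51.2 and 56.6 FPKM in LoVo-HM, against 83.6, 86.6 and 84.8 FPKM in LoVo (-0.67, limma adjusted p = 1.28e-05). ACAA2, the last thiolase of the cycle, was at 15.2, 14.4 and 13.9 FPKM in LoVo-HM, against 3.86, 2.88 and 4.98 FPKM in LoVo (1.68, limma adjusted p = 2.17e-05). CPT1A and ACADM were thus lower and ACAA2 higher, all without overlap. The count of higher genes was 5 when each library was rescaled to the same total.

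Ratios between paired members do not depend on the scaling of a library and are given as a description, since the pairs were chosen with the values known. The ratio of INSIG1 to INSIG2 was 33.5, 38.6 and 25.1 in LoVo-HM, against 12.8, 13.1 and 13.3 in LoVo. The ratio of SREBF1 to SREBF2 was 0.891, 0.821 and 0.79 in LoVo-HM, against 0.599, 0.614 and 0.55 in LoVo. In both pairs the make-up differed in every library. The ratio of SCD to FASN was 0.827, 0.844 and 0.982 in LoVo-HM, against 0.453, 0.506 and 0.529 in LoVo. The ratio of ELOVL5 to ELOVL6 was 10.6, 11.7 and 11.6 in LoVo-HM, against 5.9, 5.72 and 5.61 in LoVo. Desaturation and polyunsaturated elongation genes were thus higher relative to their partners. The ratio of ACSL3 to ACSL4 was 2.11, 2.22 and 1.89 in LoVo-HM, against 0.946, 0.968 and 1.15 in LoVo, and that of LPIN1 to DGAT1 was 1.13, 1 and 1.32 in LoVo-HM, against 0.537, 0.519 and 0.493 in LoVo. The ratio of DGAT1 to DGAT2 overlapped between the lines.

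**Figure D4:**
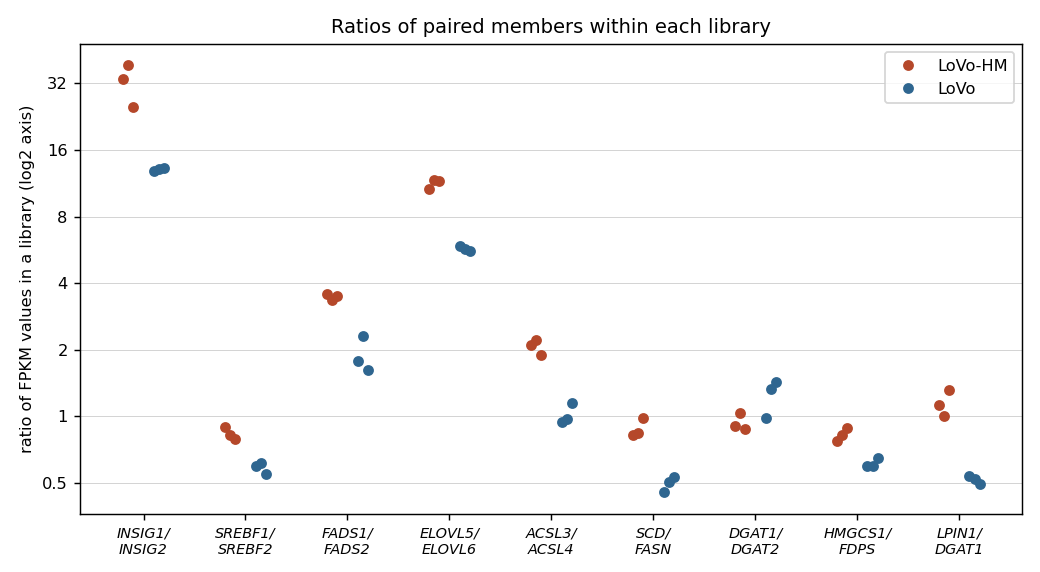
Ratio of FPKM values of paired members within each library (y axis, log2 scale), with LoVo-HM in red and LoVo in blue and a point per library (n = 3 each). In 8 of the 9 pairs the lines do not overlap, for example INSIG1 over INSIG2 at 25.1 to 38.6 in LoVo-HM and 12.8 to 13.3 in LoVo, and DGAT1 over DGAT2 overlaps. The pairs were chosen with the values known, so this count follows in part from that choice. No share over other pairs of genes was computed.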

How the data were processed

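RNA of LoVo-HM and LoVo cells, 3 libraries each, was extracted with Trizol and made into libraries with a TruSeq kit, per the labels' protocols. The authors deposited a single FPKM table of 24580 rows; 19974 have both Ensembl identifier and symbol, and 3626 are at 0 throughout. The submitters' processing notes name GRCh38. Aligner, counter, annotation release, strand setting and read depth: not given in the sources used here. FPKM is relative to the total of a library, so a change in a few abundant genes shifts all others.

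Values were used as deposited, as log2(FPKM + 1). The 14487 rows whose mean reached 0.5 FPKM were compared with limma 3.58.1 (R 4.3.3), using a variance trend on intensity and two-sided moderated tests, and adjusted p-values under 0.05 were called. The fit was tested on simulated data. Positions and overlaps are from GENCODE 29 and promoters from RefSeq (GRCh38.p14).

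The members, branches, lists and tests were chosen with earlier results of these data known. All members could be named, and of each list of further genes the 3 with the smallest p. Alternatives were other pseudocounts, filters, scalings and variance fits, the replicate number as a block, leaving out rows without a symbol, and leaving out each library. Some genes of these pathways, and the list of late sterol enzymes as a whole, are not reported here.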

Additional observations from a re-analysis of the deposited data

How the results depend on the processing

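Of the 26 called members, 21 were called in the same direction in all 17 alternatives. The other 5, MVD, SQLE, LSS, ACSL4 and FABP5, kept their direction in all 17 and lost the call in 3 to 6 of them. Of the 17 members not called, 12 stayed so throughout. Rescaling each library to the same total gave 2 storage and uptake genes called higher in place of 1, moved the median of all tested genes to 0.033 and turned MSMO1 to 0.010. With quantile normalization that median was 0.042. Leaving out 1 library at a time gave 5 to 8 sterol synthesis enzymes and 5 to 8 sterol steps up to lanosterol called higher, 1 to 2 sterol synthesis enzymes and 1 to 2 steps after lanosterol called lower, and 0 to 1 genes of sterol sensing and transport called lower. In the same fits the uncalled differences of MSMO1 (-0.069 to 0.048), DHCR7 (-0.001 to 0.071), DGAT2 (-0.156 to 0.002) and ACSS2 (-0.009 to 0.080) changed sign, and the cause was not tested. With the replicate number as a block, 6459 genes were called in place of 6508, with 18 members higher and 8 lower as in the fit without it. Deviations of same-numbered libraries from their group means correlated at -0.01, 0.02 and 0.03 across genes. The labels give these libraries only a shared number, and whether they share a culture or batch cannot be told from these values. The read depth is unknown, so no counting error can be given.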

Other observations

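Values of the neighbours of some members are given as a description. These members were picked for their large differences, so smaller medians among their neighbours follow from that choice. Within 500000 bases on either side, 10 tested neighbours of SCD had a median log2 difference of 0.12 (LoVo-HM minus LoVo; SCD itself 1.18), 19 of FADS1 had 0.12 (FADS1 0.95) and 5 of ELOVL5 had -0.21 (ELOVL5 0.60). For INSIG1 3 neighbours had a median of -0.06 (INSIG1 0.98), and for CD36 3 had -0.08 (CD36 -0.52). For ACSL3 3 neighbours had a median of 0.42, with 2 called higher and 1 lower (ACSL3 0.69). PLIN2, listed at or near 0 in every library, has 5 tested neighbours with a median of 0.08.

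CCAAT stood in the promoter window of 10 of 14 members called higher, 1 of 6 called lower and 10 of 16 not called, where a window was at hand. Of all promoters 33% held it. Its share also differed by branch, 80% for sterol synthesis enzymes and 25% for the acyl-CoA synthetases. Whether CCAAT goes with the call or with the branch was not tested. The window of INSIG1 also held the E-box letters CACGTG, 55 bases before the RefSeq start, and the windows of ELOVL5, SC5D, SCAP and PLIN2 held it elsewhere, against 6.49% of 27305 promoters.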
